A study of Sus scrofa with 2 samples.

Results

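The regions described are the large topologically associating domains (TADs) of pig spleen. They are the domains of 500 kb or more on chromosomes 1 to 18 that share no base with another listed domain, and there were 278 of them among 1927 domains listed for the whole series. Chromatin contacts had been mapped by in situ Hi-C in spleen of Sus scrofa, as 2 replicates of a single group with no second tissue, genotype or treatment. No source used here names the breed, age or sex of the animals, and a contact map alone cannot be checked for markers of spleen cells. The authors' domain list and their list of 3410 chromatin loops stand for the series and not for a replicate, so no value per replicate could be given and errors are the spread between chromosomes. The members were chosen by measured values, the length and position of each domain in these Hi-C data, so length and the absence of overlap are a description and carry no test. They are set against the 1417 other non-overlapping domains of the same chromosomes, all of 490 kb or less.

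A TAD is a stretch of chromatin whose DNA contacts itself more often than it contacts the flanking DNA. TADs are held to limit which enhancers reach which promoters, and many are closed by a loop that forms when cohesin, a ring-shaped motor, extrudes DNA until it meets bound CTCF at both edges. Long domains with few genes are known from other mammals around developmental regulators, whose distant enhancers lie in the non-coding DNA that surrounds them.

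The large domains were few but long. They ran from 500 to 3390 kb with a median of 825 kb (quartiles 690 and 1060 kb), whereas the other domains had a median of 230 kb (quartiles 190 and 290 kb). The large domains made up 16.4% of the non-overlapping domains and 42.8% of their length, 261.4 Mb against 349.8 Mb in the other domains. They covered 11.5% of the autosomes, measured to the last annotated gene of each. All 18 autosomes had some, from 5 on chromosome 12 to 41 on chromosome 1. The gap to the neighbouring listed domain was at least 10 kb and had a median of 405 kb, against 340 kb for the other domains.

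**Figure D1:**
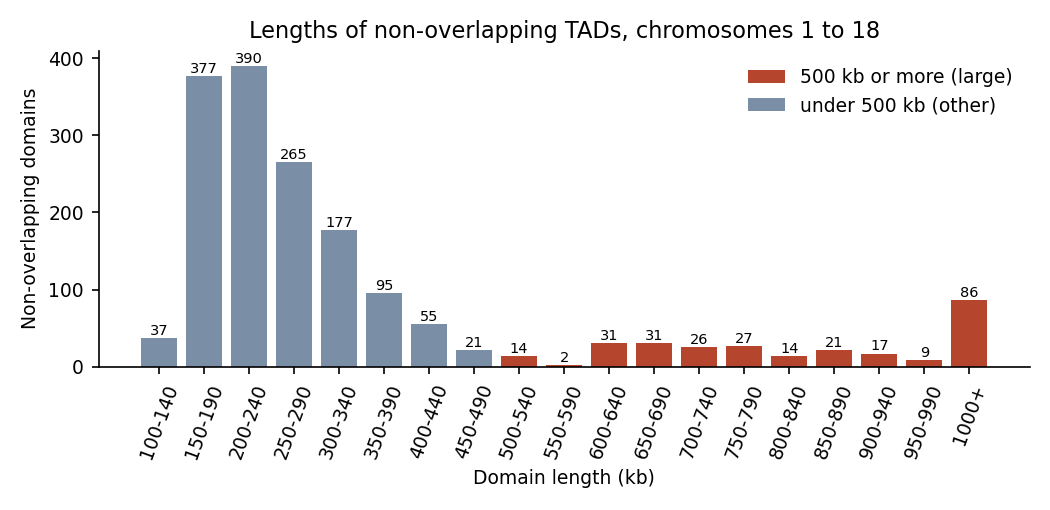
Number of non-overlapping domains on chromosomes 1 to 18 (vertical axis) by length in kb (horizontal axis, steps of 50 kb and a last class of 1000 kb or more); red bars are the large domains and grey-blue bars the other domains. The counts drop to 2 domains at 550 to 590 kb and rise again to 31 at 600 to 640 kb.

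The lengths had 2 humps. There were 14 domains of 500 to 540 kb and 2 of 550 to 590 kb, but 31 of 600 to 640 kb and 31 of 650 to 690 kb. The order of the deposited list had the same break. On every autosome the list opened with an unbroken run of domains of 600 kb or more, and these runs held 280 of the 285 autosomal domains of that length, overlapping ones included. Of the 278 large domains, 260 lay in these runs, with lengths from 610 to 3390 kb, and 18 stood later in the list, with lengths from 500 to 650 kb. No source used here names the caller or its settings, and the part of the calling in this break was not tested. Just inside the limit, the 6 domains of 500 and 510 kb held 11 protein-coding genes, with a median of 1.5. Just outside it, the 10 domains of 480 and 490 kb held 74, with a median of 4.50.

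Protein-coding genes were sparse in the large domains. The 278 domains held 911 protein-coding genes, each gene placed by its midpoint, or 3.49 per Mb. That was 4.87% of the 18722 protein-coding genes of the autosomes, or 5.32% when any overlapping base was counted. The 1417 other domains held 4524, or 12.9 per Mb, and the autosomes as a whole had 8.27 per Mb. By chromosome, gene density averaged 3.64 ± 1.26 genes per Mb in large domains and 12.5 ± 3.80 in other domains (SD, n = 18 chromosomes). It was lower in large domains on all 18 chromosomes, by a mean of 8.91 ± 0.851 genes per Mb (SE; permutation p = 2e-05, the smallest the draws can give, adjusted p = 3e-05 over 5 tests). Domains were chosen by length, which divides this measure, and longer domains were already known to be poorer in genes. This p is therefore no independent evidence of the direction. The 2 sets of chromosome values did not overlap. Large domains ranged from 2.19 genes per Mb on chromosome 4 to 7.18 on chromosome 17, and other domains from 7.51 on chromosome 11 to 19.8 on chromosome 2.

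Less of a large domain lay under a gene. Protein-coding gene spans covered 41.5 ± 8.69% of the bases of large domains and 62.2 ± 3.71% of those of other domains (SD, n = 18 chromosomes), again lower on all 18 chromosomes (permutation adjusted p = 3e-05). Genes for long non-coding RNAs (lncRNAs) were also sparser, with 2.35 ± 0.670 per Mb in large domains and 3.30 ± 0.625 in other domains. The lncRNA density was lower in large domains on 15 of 18 chromosomes (permutation adjusted p = 6.00e-04). The ratio of large to other domains was 0.713 for lncRNA genes and 0.290 for protein-coding genes. Whether these ratios differ from each other was not tested. Gene cover and lncRNA density are also divided by domain length. As for gene density, their p-values are no independent evidence of the direction.

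The genes that the large domains did hold were longer on most chromosomes. Their median span was 39.2 kb, with quartiles of 11.3 and 144 kb, against 22.8 kb, with quartiles of 8.51 and 60.3 kb, in other domains and 20.7 kb over all autosomal protein-coding genes. Averaged over chromosomes on the log2 scale, the median span was 1.68 times that in other domains (difference 0.75 ± 0.19 log2 units, SE; longer in large domains on 14 of 18 chromosomes, permutation adjusted p = 0.00150). Chromosomes 11, 15, 16 and 17 went the other way. The 2 groups were split by domain length, and what part that split has in this difference was not tested. Genes of 500 kb or more numbered 40 of 911 in large domains (4.39%) and 12 of 4524 in other domains (0.265%), against 245 of 18722 (1.31%) on the autosomes as a whole. Of the 58 autosomal genes of 1000 kb or more, 8 (13.8%) lay in large domains, which covered 11.5% of the autosomes. Other domains held the midpoint of 0 of them. At 490 kb or less no other domain could contain such a gene whole. Genes were placed by midpoint, and the part of domain length in these counts was not tested.

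**Figure D2:**
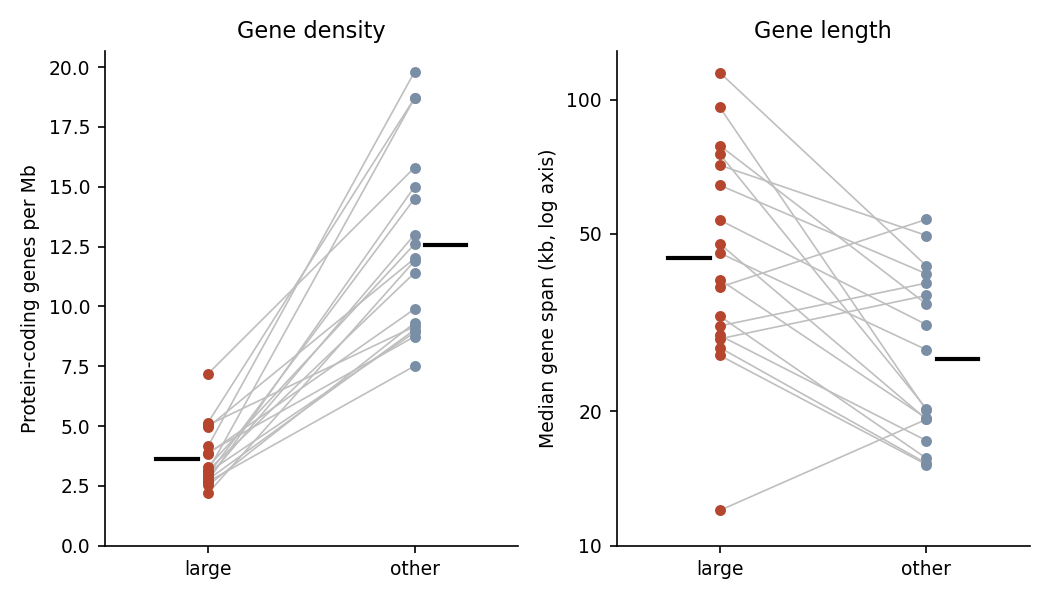
Protein-coding genes per Mb (left, linear axis from 0) and median span of protein-coding genes in kb (right, log axis) in large domains (red) and other domains (grey-blue); each pair of joined points is 1 of 18 chromosomes and black bars are means, taken on the log scale for span. All 18 lines climb from large to other domains for gene density, and 14 of 18 descend for span.

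Gene ends were fewer at the edges of large domains than at those of other domains. Within 20 kb of an edge there were 0.523 ± 0.214 protein-coding gene ends per edge in large domains, against 1.40 ± 0.434 in other domains (SD, n = 18 chromosomes). The value was lower in large domains on 17 of 18 chromosomes (permutation adjusted p = 3e-05). Since longer domains were already known to be poorer in genes, this p is no independent evidence of the direction. The ratio of large to other domains was 0.374 for gene ends at edges and 0.290 for protein-coding gene density. Whether gene ends at edges were few for that density was not tested. A gene end here is either annotated end of a gene, since the gene table gives no strand. Of the 556 edges of large domains, 206 (37.1%) cut through a gene body, against 1598 of 2834 (56.4%) in other domains.

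Within the large domains, the number of genes had little relation to length. Spearman's rho across the 278 domains was -0.07 for length against the number of genes and -0.45 for length against genes per Mb, given as a description because length is part of the second measure. Per Mb, the domains of 600 to 690 kb had 5.22 protein-coding genes, those of 700 to 990 kb 4.23, those of 1000 to 1490 kb 2.18 and those of 1500 kb or more 2.52. The share of the sequence under genes was 54.1, 43.9, 32.5 and 32.8% in the same classes, and the median gene span was 54.4, 32.5, 57.9 and 16.1 kb. The median span in the 23 longest domains was thus below the 22.8 kb of other domains. A single one of these 23, of 1510 kb on chromosome 17, held 61 genes. The 16.1 kb and the 2.52 genes per Mb of this class therefore rest largely on that domain. The 16 domains of 500 to 590 kb had 3.58 genes per Mb and 53.5% gene cover, and the 76 other domains of 400 to 490 kb had 8.93 genes per Mb and 62.4%.

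A large domain had a median of 2 protein-coding genes, as had the other domains. A single gene was held by 103 of the 278 large domains (37.1%, 95% Wilson interval 31.6 to 42.9%), against 31.1% of the other domains. A further 64 held 2 genes, 74 held 3 to 5, 13 held 6 to 10, 17 held over 10, and 7 held none. The interval takes domains as independent, and counting a gene wherever any base of it overlaps left 83 single-gene domains (29.9%), against 21.2% of other domains counted likewise. With lncRNAs, pseudogenes and other annotated genes counted too, 11 large domains (3.96%) had a single gene, against 14.9% of other domains. A single or lone gene is from here on the only one with its midpoint inside, and in 22 of the 103 domains, those of SOX5, POU3F3 and ID2 among them, a further gene reached in. Some single genes, such as CDH13, KCTD16 and PIK3R1, themselves ran past an edge of their domain.

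All 103 single genes had a gene symbol, and by textbook role, read after the genes were seen, 39 of them encode transcription factors or their cofactors. Another 15 encode receptors, co-receptors or ligands, 12 encode intracellular signalling proteins, 12 adhesion or matrix proteins, 9 ion channels, transporters or synaptic proteins, and 16 have other roles. The roles of all other genes were not assigned, so these counts have no background. The domains of the transcription factors had a median length of 1030.0 kb, against 740 to 900 kb in the other 5 role groups.

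ZNF608, a zinc finger protein, was alone in the longest single-gene domain, 2220 kb on chromosome 2 from 127150001 to 129370000, where its 109 kb lay 898 kb from the nearer edge. BCL11B, a repressor needed for T cell commitment, was alone in 1920 kb on chromosome 7 from 118450001 to 120370000. POU3F3, a neural transcription factor of 3.62 kb, was alone in 1530 kb on chromosome 3 from 49790001 to 51320000. SOX5 and SOX6, related factors of cartilage and nerve development, were the single genes of domains of 1610 and 1360 kb, with spans of 1006.5 and 621 kb.

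Several single genes are regulators of blood cells, which make up most of the spleen. MEF2C, a factor of B cell and muscle development, was alone in 1380 kb on chromosome 2 from 96100001 to 97480000, with 1 loop inside. TCF4 and TCF12 are E proteins, the helix-loop-helix factors that set lymphocyte fate, and ID2 and ID4 are the inhibitors that bind such factors. TCF4 stood alone in 1350 kb and TCF12 in 500 kb, both on chromosome 1, and ID2 stood alone in 1170 kb on chromosome 3 and ID4 in 1100 kb on chromosome 7. GATA3, the factor of T helper 2 cells, was alone in 1060 kb on chromosome 10 from 62350001 to 63410000. EBF1, a factor of the B cell lineage, was alone in 940 kb on chromosome 16, TOX, a factor of T cell development, in 900 kb on chromosome 4, and FOXO1 and ETS1, factors of lymphocyte maturation, in 540 and 510 kb. The last 2 were among the 18 domains outside the leading runs of the list.

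Other single genes act in organ development or at the cell surface. ZNF462, a zinc finger protein, was alone in 1240 kb on chromosome 1. TBL1XR1, a corepressor subunit, was alone in 1370 kb on chromosome 13, and KLF6, a zinc finger factor, in 1260 kb on chromosome 10 with 13 lncRNA genes. EPHA4, an ephrin receptor, had 1800 kb on chromosome 15, GFRA2, a co-receptor for neurturin, 1260 kb on chromosome 14, and PTPRT, a receptor phosphatase, 1370 kb on chromosome 17. CDH13, an atypical cadherin, had 1230 kb on chromosome 6. SLC8A1, the cardiac sodium-calcium exchanger, had 1920 kb on chromosome 3 and KCTD16, a subunit of GABA-B receptors, 1300 kb on chromosome 2. FIGN, a microtubule-severing protein, had 1240 kb on chromosome 15. KIF2B, a kinesin of 2.06 kb, was alone in 1350 kb on chromosome 12 with no lncRNA gene.

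**Figure D3:**
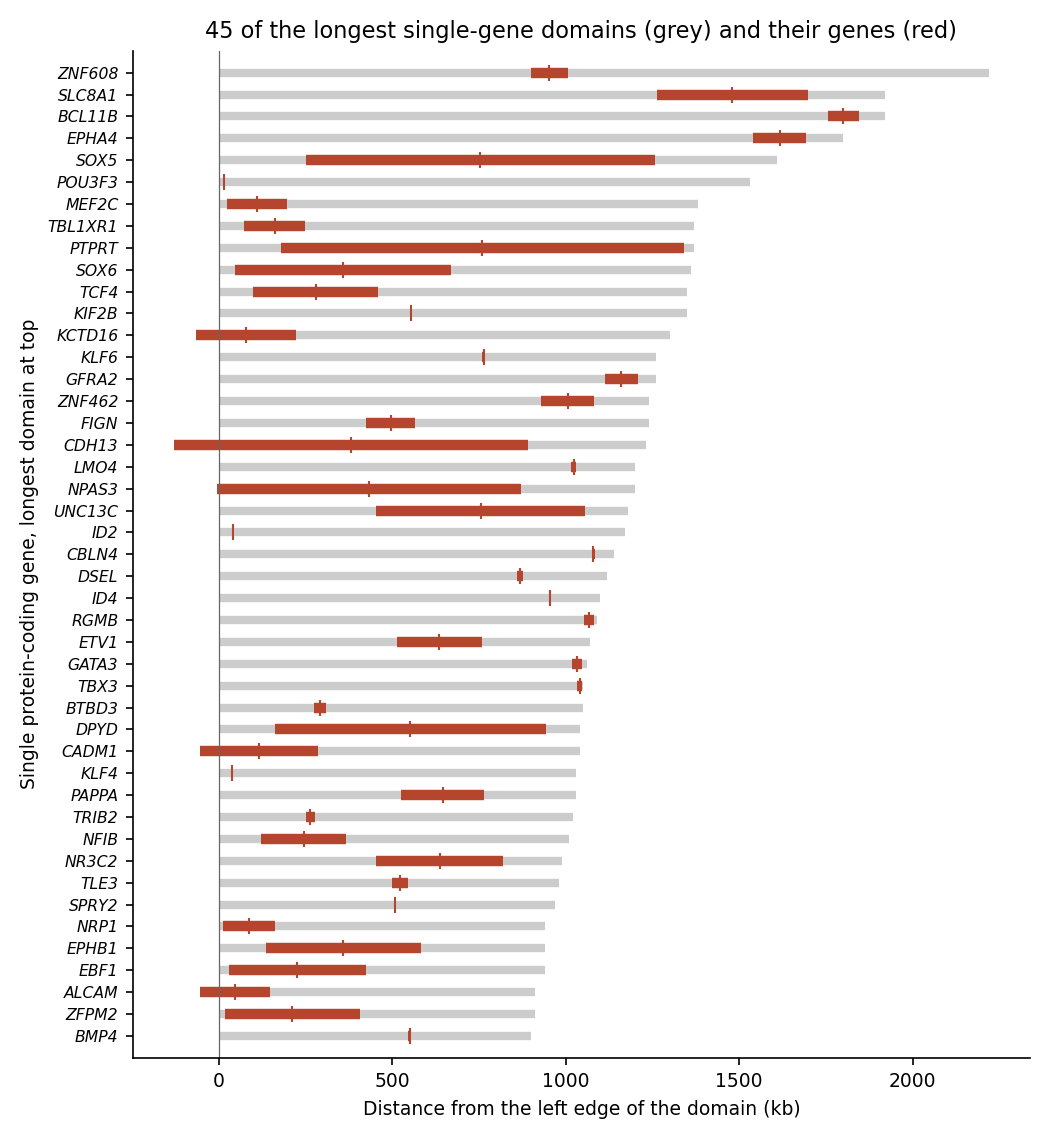
45 of the longest single-gene domains, drawn from their left edge in kb (horizontal axis) and ordered by length from the top; grey is the domain, red the annotated span of its single protein-coding gene, and the tick its midpoint. POU3F3, ID2 and KLF4 lie at the left end and BCL11B, RGMB, GATA3 and TBX3 at the right end of their domains, whereas PTPRT fills 84.9% of its own.

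The single genes filled their domains to very different degrees. The gene covered a median of 17.2% of a large single-gene domain, against 56.8% of the 441 other single-gene domains, whose genes were of like span (medians of 176 and 138 kb). In 23 of the 103 the gene covered 50% or more. ALK, a receptor tyrosine kinase of 695 kb, ran past both edges of its domain of 610 kb. FOXP1, a forkhead factor of B cell development, covered 96.5% of 650 kb, ZBTB20 95.7% of 840 kb, HS6ST3 94.8% of 700 kb and PTPRG 93.4% of 650 kb. In 37 of the 103 the gene covered under 10%. In 33 of these 37 all protein-coding gene spans together covered under 10% of the domain, and the others were the domains of ENC1, IRS2, ZFP36L1 and KLF3, into which a neighbouring gene reached.

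Many of these 37 genes sat near an edge. In 16 of the 37 (43.2%) the gene's midpoint lay within 10% of the domain's length from an edge, the 2 strips that make up 20% of a domain. In the other 21 it lay deeper, with 5 or 6 domains in each further step of 10%. For all single-gene domains the share was 22 of 103 (21.4%), against 38 of 441 (8.62%) in other domains. Among other domains whose gene covered under 10%, it was 17 of 56 (30.4%). This subset was chosen after its values were seen and has no test. POU3F3 lay 14.1 kb from an edge, TBX3, a T-box factor of limb and heart, 3.23 kb, FZD8, a Wnt receptor, 3.98 kb, RGMB, a co-receptor of bone morphogenetic proteins, 9.57 kb, and GATA3 12.0 kb. ID2 lay 40.8 kb and KLF4, a zinc finger factor of monocyte differentiation, 34.8 kb from an edge. Genes near the middle included GAS1, a co-receptor of hedgehog, SPRY2, an inhibitor of receptor kinases, and TLE3, a corepressor, with midpoints at 48.1, 47.8 and 46.7% of the domain length.

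The longest domains held few genes of several roles. The domain of AUTS2 and GALNT17 (3390 kb) was 48.8% covered by genes, and that of MACROD2, KIF16B and FLRT3 (2560 kb) 88.1%. The domain of UNC5C, a netrin receptor, and PDHA2 (2360 kb) was 27.6% covered. That of ARHGAP15, a regulator of the GTPase Rac, GTDC1 and ZEB2, a repressor of epithelial and lymphoid genes (2330 kb), was 40.3% covered and had 9 lncRNA genes. The sixth, on chromosome 3 from 74180001 to 76340000 (2160 kb), held MEIS1, a homeodomain factor of blood stem cells, and ETAA1, with 7.24% cover. The seventh, on chromosome 1 from 23340001 to 25420000 (2080 kb), held TXLNB, HECA and CITED2, a transcriptional cofactor, with 5.15% cover. The eighth, on chromosome 13 from 190240001 to 192170000 (1930 kb), held the matrix proteases ADAMTS5 and ADAMTS1 and 2 unnamed loci, with 3.79% cover. The longest loop inside any large domain, 1850 kb with 53 contacts against 18.5 expected, had ADAMTS1 in one anchor. The first 5 and the domains of SLC8A1 and BCL11B, which complete the 10 longest, had no loop inside.

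A few large domains were dense in genes. The 10 with most genes held 227 of the 911. On chromosome 17 the domain from 61460001 to 62970000 (1510 kb) held 61 genes, 40.4 per Mb, among them TAF4, a subunit of the general factor TFIID, LAMA5, a laminin chain, DIDO1, ZBTB46, a factor of dendritic cells, and NTSR1. Without it, the mean difference in gene density over chromosomes (large minus other) was -9.23 genes per Mb. On chromosome 2, from 67860001 to 68650000 (790 kb), 26 protein-coding genes had LOC numbers only. On chromosome 15, from 120240001 to 120950000 (710 kb), 23 genes included USP37, PNKD, TTLL4, CYP27A1, PLCD4 and CNOT9. On chromosome 6, from 62100001 to 62730000 (630 kb), 18 genes included the zinc finger genes ZNF134, ZNF671 and ZSCAN4. On chromosome 16, from 78980001 to 79930000 (950 kb), 23 genes included AHRR, the repressor of the aryl hydrocarbon receptor, SLC9A3, PLEKHG4B, SLC12A7, LPCAT1 and the dopamine transporter SLC6A3. The 7 domains with no gene midpoint were 680 to 1570 kb long, and 5 of them had no protein-coding sequence at all.

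Lists of genes by function were placed on the domains and set beside the 4.87% of all autosomal protein-coding genes that had their midpoint in a large domain. The lists were written with earlier results in view, and only counts are given. Of 96 developmental transcription factors, 30 (31.2%) lay in large domains, 14 of them alone, and 5 (5.21%) in other domains, which held 24.2% of all genes. Besides ZEB2, ZNF608, MEIS1, BCL11B and SOX5 they included MAF, a factor of macrophages and T cells, in 1830 kb on chromosome 6. Without the factors already known to lie in the 5 longest domains, 28 of 94 remained. Of 47 developmental signalling genes, 10 (21.3%) lay in large domains and 3 (6.38%) in other domains. Among the 10 were PDGFD in 1680 kb, JAG1, a Notch ligand, in 1220 kb, TGFB2 in 1160 kb, BMP4 alone in 900 kb, IGF1 in 850 kb and the hedgehog co-receptor GAS1 alone in 790 kb.

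Of 69 genes on a list drawn up under the heading of neuronal adhesion and synapse, 9 (13.0%) lay in large domains and 0 in other domains. They included GRIA4, a glutamate receptor subunit, in 1680 kb. Of the 9, AUTS2, FLRT3, MACROD2 and UNC5C were already known to lie in the longest domains when the list was written, and without them 5 of 65 remained. The median span of the listed neuronal genes was 786 kb, above the length of the longest of the other domains, 490 kb. Genes were again placed by midpoint, and the part of gene length in these counts was not tested.

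Of 72 lymphocyte genes, 15 (20.8%) lay in large domains, 8 of them alone, and 30 (41.7%) in other domains. Without the gene already known to lie in the 5 longest domains, 14 of 71 remained in large domains. BCL6, the repressor of the germinal centre, lay with LPP in 1170 kb on chromosome 13, THEMIS, a protein of T cell selection, in 970 kb on chromosome 1, and ARHGAP15, MEF2C, GATA3 and EBF1 in the domains given above. Macrophage and stromal genes were in large domains in 4 of 48 cases (8.33%), namely MAF, THBS1, KITLG and its receptor KIT, and in other domains in 13 (27.1%). Ribosomal proteins were in large domains in 3 of 72 cases (4.17%), RPS21, RPS24 and RPS23, and in other domains in 21 (29.2%). Housekeeping genes were in large domains in 2 of 44 cases (4.55%), SDHA and PSMB2, and in other domains in 15 (34.1%). The shares of these last 2 lists in large domains were near that of all genes. In all, 9 genes, such as GATA3 and EBF1, were on more than 1 list.

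**Figure D4:**
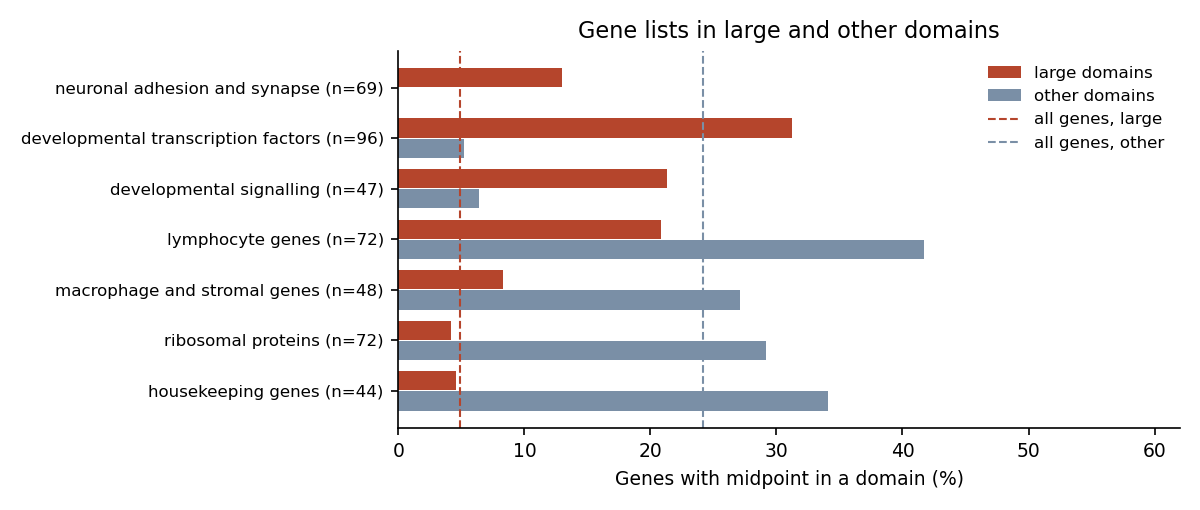
Percent of the autosomal genes of each list (n in the label) with their midpoint in a large domain (red) or another non-overlapping domain (grey-blue); dashed lines are the shares of all autosomal protein-coding genes, 4.87 and 24.2%. Developmental transcription factors have 31.2% in large and 5.21% in other domains, and housekeeping genes 4.55 and 34.1%.

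Loops, pairs of 25 kb loci with more contacts than their surroundings, were sparse in the large domains. Both lists come from the same contact maps, so loops are described without a test. Of 3261 autosomal loops, 147 had both anchor midpoints in the same large domain, or 0.562 per Mb, against 1416, or 4.05 per Mb, in other domains. The 16 large domains of 500 to 590 kb were an exception with 30 of the 147 loops, or 3.58 per Mb, against 2.26 per Mb in other domains of 400 to 490 kb. From 600 kb upward the classes had 0.270 to 0.696 loops per Mb. A loop lay inside 73 of 278 large domains (26.3%, Wilson interval 21.4 to 31.7%), against 57.6% of other domains, although a longer domain has more room for one. Of the 73, 37 had a single loop and 36 had 2 to 7. The 17 large domains of chromosome 4 and the 8 of chromosome 17 had none, and the 25 of chromosome 13 had 30 loops in 10 domains.

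Most large domains had no loop at their edges. A loop joining both edges, with each anchor within 20 kb of an edge on either side of it, was listed for 22 of 278 large domains (7.91%, Wilson interval 5.28 to 11.7%), against 40.0% of other domains. An anchor lay within 20 kb of 95 of 556 edges (17.1%), against 1566 of 2834 edges (55.3%) of other domains, and 206 large domains (74.1%) had none at either edge. With 50 kb in place of 20 kb, a choice made after the data were seen, 12.2% of large and 54.1% of other domains had a both-edge loop.

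The share with a both-edge loop varied with length. It was 23.7% in the 76 domains of 400 to 490 kb, 50% in the 16 of 500 to 590 kb, 9.68% in the 62 of 600 to 690 kb, 3.51% in the 114 of 700 to 990 kb, 6.35% in the 63 of 1000 to 1490 kb and 0 in the 23 longer ones. By place in the list, 13 of the 260 large domains in the leading runs (5.0%) had one, and 9 of the 18 later ones (50%). Gene density was alike in these 2 sets, at 3.49 and 3.42 genes per Mb. What part the calling has in the difference in loops was not tested.

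**Figure D5:**
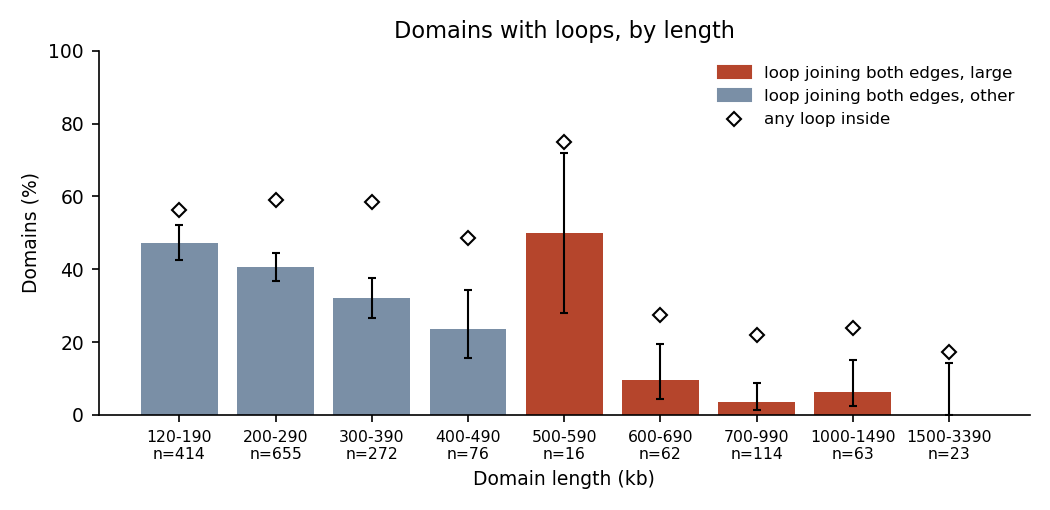
Percent of non-overlapping domains with a loop joining both edges (bars, with 95% Wilson intervals) or with any loop inside (diamonds), by domain length in kb; red bars are large domains, grey-blue bars other domains, and n is the number of domains. Both measures are highest at 500 to 590 kb (50 and 75%) and lower in every class from 600 kb.

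The both-edge loop with most contacts in each of these 22 domains had 40 to 130 observed contacts, with a median of 81.5. KLF6 stood in the longest such domain, whose edges were joined over 1250 kb with 84 contacts against 28.9 expected from the pixels around it. The edges of the domain of BCL6 and LPP were joined over 1150 kb with 85 contacts against 30.1. Others joined the edges of the domains of PAPPA, a protease of insulin-like growth factor binding proteins (65 contacts against 22.6), ZEB1 (84 against 35.9), PIK3R1, the regulatory subunit of PI3-kinase (64 against 26.1), EMX2 (86 against 27.6) and SGK1, a serum-induced kinase (119 against 41.0). FOXO1, ETS1, TCF12 and ZFP36L1, an RNA-binding protein of lymphocyte quiescence, were each alone in such a domain, with 91, 116, 80 and 107 contacts.

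The loops inside large domains were mostly short for their domain. Their median span was 275 kb, with quartiles of 125 and 475 kb, or 35.2% of the domain, against 150 kb and 70.3% in other domains. The shortest of the 147 spanned 100 kb. A loop of that span fills a large part of another domain, at their median length of 230 kb. What part domain length has in the contrast in share of the domain was not tested. Of the 147, 94 (63.9%) spanned under 50% of the domain. They had 24 to 178 observed contacts, with medians of 90 contacts and 2.01 times the expected contacts, against medians of 124 and 1.91 in other domains. At spans of 100 to 190 kb the 56 loops of large domains had a median of 110 contacts and a ratio of 1.85, and the 978 of other domains had 132 and 1.83. A protein-coding gene end lay in both anchors of 25 of the 147 loops (17.0%), in 1 anchor of 58 and in neither of 64 (43.5%), against 26.8% with both and 28.2% with neither in other domains. Of the 911 genes in large domains, 104 (11.4%) had an end in a loop anchor, against 33.0% of genes in other domains and 17.8% of all autosomal genes.

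Large domains with a loop inside held more genes than those without. The 73 had 5.51 protein-coding genes per Mb and a median of 3 genes, and the 205 without had 2.84 per Mb and a median of 2. Of the 103 single-gene domains, 22 (21.4%) had a loop inside, 13 of them domains of transcription factors or cofactors and 0 of them domains of receptors, co-receptors or ligands. Of the single genes, 14 had an end in an anchor.

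The domain with most loops inside, 7 in 4 groups of touching pixels, was on chromosome 3 from 55330001 to 55870000, with MGAT4A, INPP4A, a lipid phosphatase, KIAA1211L and UNC50. The loop with most contacts in it had 178 against 103 expected, over 100 kb, and the one with the highest ratio, 2.24, had 98 against 43.8, over 400 kb. The domain of WWOX and MAF on chromosome 6 from 7810001 to 9640000 had 5 loops, 4 of them of 100 to 175 kb with no gene end in either anchor. One of these had 83 contacts against 14.7 expected, the highest ratio of the 147 loops at 5.64. The fifth joined an end of MAF to a bin 1075 kb away, with 44 contacts against 16.7. TBL1XR1 was alone with 5 loops, 3 of which had an end of the gene in an anchor, and the one with most contacts had 156 against 61.6.

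BCL6 had 3 loops, 2 of them to the far side of its domain (77 and 85 contacts against 34.9 and 30.1) and 1 of 250 kb (114 against 52.9). KLF3, a repressor of the Krüppel-like family, was alone with 5 loops on chromosome 8 from 29570001 to 30090000, none of which had a gene end in an anchor. The right anchor of 1 of them, from 30025001 to 30050000, lay within KLF3, which spans 30024978 to 30060981. TLE3 was alone with 4 loops on chromosome 1 from 167310001 to 168290000, of which 2 began at an end of the gene (97 and 76 contacts against 51.1 and 40.9). IRF2BP2 on chromosome 14 and TCF12 on chromosome 1 had 4 loops each in domains of 520 and 500 kb. The domain of LMNB1, which encodes lamin B1, on chromosome 2 from 129460001 to 130440000 held 9 genes and 4 loops. The 3 loops of the CITED2 domain all had an end of CITED2 in an anchor and led, at 125 and 150 kb, to ends of TXLNB and HECA (115 and 110 contacts against 60.5 and 63.0) and, at 550 kb, to a bin with no gene end (65 against 29.8).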

How the data were processed

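Hi-C of pig spleen (2 replicates) cut chromatin with DpnII, per the labels' protocols, and the submitters' processing notes list HiC-Pro 3.1.0. The deposited domain list has starts and ends in multiples of 10 kb. No source used here names its caller, the pooling of replicates or the genome build. Per the file headers, juicer_tools 1.9.9 made the authors' loop list. It holds, per the file headers, the observed contact count of each pixel, not normalized. The expected signal was computed by the authors' tool from the donut of pixels around it, per the file headers. The 4 q-values (FDR) against the surrounding pixels are also the authors', per the file headers, and the largest of them ranked loops. Sequencing depth is unknown, and contact counts of single loops limit the precision.

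Genes came from a RefSeq table of Sscrofa11.1. Deposited coordinates are printed counted from 1. Per chromosome, 5 measures in large domains minus those in other domains were tested by two-sided sign-flip permutation (100000 draws, scipy 1.17.1), with Benjamini-Hochberg adjustment and a threshold of 0.05. The test was checked on simulated data. Wilson intervals are at 95% and take domains as independent, which was not tested. Of 448 list genes, 439 matched.

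The members and lists were chosen with earlier results of these data known, among them that longer domains are poorer in genes. Domains named were the 10 longest, the 10 with most loops, the 5 densest and the 5 sparsest in genes and the 20 longest with a single gene, with up to 6 genes each. List genes named were up to 6 per list. Some genes that these rules name are not reported here. Further genes, named for their position, loops or role, were chosen after their values were seen.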

Additional observations from a re-analysis of the deposited data

How the results depend on the processing

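The 5 tested measures kept their direction and their side of the threshold in all 39 fits with changed data and in all 90 fits that left out a chromosome. Each fit is a measure under a setting, and some settings applied to only some of the measures. The changes were other length limits, overlapping domains kept and domains of 250 to 490 kb as the comparison. Other gene placement or gene classes and other edge windows were also tried. A limit of 600 kb and leaving out the domain with most genes were added after seeing the data. With a chromosome left out, the difference in gene density was -9.19 to -8.52 genes per Mb, in log2 gene span 0.66 to 0.83, in gene cover -21.8 to -19.9 percentage points, in lncRNA density -1.04 to -0.857 per Mb and in gene ends per edge -0.928 to -0.811. Keeping chromosomes with at least 5 large domains kept all 18 and changed nothing. Single-gene domains made up 29.9% by any overlap (other domains 21.2%) and 3.96% with all annotated genes (other domains 14.9%), in place of 37.1% (other domains 31.1%). In the 1630 autosomal loops with the lowest FDR, large domains held 61 loops in place of 147, 13.7% held a loop and 4.68% had a both-edge loop. With limits of 400 and 700 kb the number of loops inside was 221 and 89, with 354 and 200 domains, and both-edge loops were at 4.0% of domains of 700 kb or more. With a 50 kb tolerance they were at 12.2%. Without 4 genes known beforehand, the neuronal list had 5 genes in large domains in place of 9. Likewise, developmental transcription factors had 28 in place of 30 and lymphocyte genes 14 in place of 15. The remaining lists kept their counts. No paired analysis was possible because the tables hold no value per replicate, and for the same reason no replicate could be left out.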

Other observations

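The 36 autosomal domains of 500 kb or more that overlap another listed domain, left out above, had a median length of 680 kb, and 24 of them had another listed domain inside. They held 5.71 protein-coding genes per Mb, and 7 of the 36 (19.4%) held a single gene. A loop lay inside 20 of them (55.6%), and a loop joining both edges was listed for 0. The upper Wilson limit for that share was 9.64%, with domains taken as independent. On chromosome X, 7 of the 15 listed domains were of 500 kb or more, from 700 to 1590 kb long, and their genes were not analysed here.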
